A study of Homo sapiens with 24 samples.

Results

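The genes described here are DPPA3, its binding partner UHRF1 and the paralog UHRF2, the DNA methyltransferases DNMT1, DNMT3A and DNMT3B, the oxidases TET1, TET2 and TET3, and the glycosylase TDG. They were chosen by name: every probe set of the expression table that the array annotation assigned to 1 of these symbols was taken, which gave 11 probe sets of 20276 and 10 genes of 17448 tested. All arrays were hybridised with RNA of SW1222, a human colorectal cancer cell line, kept at 21% oxygen. In the induction experiment, a line carrying doxycycline-inducible DPPA3 (DPPA3-OE) was set against a control-OE line, both as 3D megacolonies in Matrigel with 5 µg/ml doxycycline for the last 5 days and as 2D cultures with 5 µg/ml doxycycline for 4 hours, with 3 arrays per group. In the knockdown experiment, 3 arrays of megacolonies with an shRNA against DPPA3 were set against 3 with a control shRNA, none of them treated. In the knockout experiment, 2 arrays each of the DPPA3 knockout clones 66 and 75 were set against 2 arrays of cells with a scrambled guide RNA, all as untreated 3D megacolonies.

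Each knockout line was a single clone, and both clones shared the scrambled-guide arrays as their control. Since no doxycycline-free arrays of the DPPA3-OE line were analysed here, an effect of induction and a standing difference between the lines cannot be told apart. Culture form and length of doxycycline treatment changed together, so 3D with 5 days and 2D with 4 hours cannot be told apart either. The labels do not say that arrays of a group came from separate cultures, so the p-values measure the spread between these arrays, which may be technical. Of 12 markers of colorectal epithelium, 12 lay above the median of all gene means, with array means of 8.40 to 9.05 (log2 signal) for the list. Fibroblast markers had array means of 2.81 to 3.11, and 8 measured markers of leukocytes and endothelium 2.76 to 2.99, against a median gene mean of 4.09. Arrays of 1 group had correlations over genes of 0.987 to 0.994.

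DNA methylation at CpG is copied after replication by DNMT1, which is led to newly made DNA by UHRF1, a protein that recognises the half-methylated state. DPPA3, also called Stella or PGC7, is a small protein of oocytes and early germ cells. In mouse it binds UHRF1 and keeps it from chromatin. DNMT3A and DNMT3B place methyl groups on unmethylated DNA. TET enzymes oxidise the methyl group, and TDG removes oxidised bases so that repair can restore cytosine. Signals below measure RNA only, as log2 values of a probe set, so levels can be compared between arrays but not between genes.

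The promoters of these genes differed in their content of CpG, the dinucleotide that the enzymes act on. The 250 bases upstream of the annotated start are shown for DPPA3, the gene that was manipulated, for DNMT1, the endogenous gene that changed, and for UHRF1 (the first of its 3 windows). They come from RefSeq on GRCh38.p14, are written 5′ to 3′ on the strand of the gene, and carry each CpG in capitals. The DPPA3 window lies at chr12:7711183-7711432 on the plus strand, the DNMT1 window at chr19:10194954-10195203 on the minus strand, and the UHRF1 window at chr19:4909251-4909500 on the plus strand.
DPPA3: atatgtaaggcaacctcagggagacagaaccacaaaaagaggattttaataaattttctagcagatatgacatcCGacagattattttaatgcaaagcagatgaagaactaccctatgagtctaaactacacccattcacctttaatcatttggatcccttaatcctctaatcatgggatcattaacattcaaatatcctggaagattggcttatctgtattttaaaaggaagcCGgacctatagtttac
DNMT1: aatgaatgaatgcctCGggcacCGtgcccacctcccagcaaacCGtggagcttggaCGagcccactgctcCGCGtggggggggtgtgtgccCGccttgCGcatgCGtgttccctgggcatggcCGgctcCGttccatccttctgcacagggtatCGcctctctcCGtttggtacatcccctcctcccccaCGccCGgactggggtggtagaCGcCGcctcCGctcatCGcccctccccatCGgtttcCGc
UHRF1: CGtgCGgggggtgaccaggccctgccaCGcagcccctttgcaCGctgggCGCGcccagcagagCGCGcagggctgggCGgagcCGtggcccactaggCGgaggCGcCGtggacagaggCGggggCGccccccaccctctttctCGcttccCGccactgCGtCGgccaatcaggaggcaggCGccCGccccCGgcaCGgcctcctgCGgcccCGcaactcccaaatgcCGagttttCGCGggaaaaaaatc

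The DPPA3 window held 2 CpG with 35.6% G and C, at the 14.7th percentile of CpG counts among 35116 RefSeq windows, whose median was 11. The DNMT1 window held 21 CpG with 66.8% G and C. The 3 UHRF1 windows held 28, 32 and 41 CpG. All 10 genes had at least 1 window in the table. E2F factors switch on genes of DNA replication, and 4 words of the E2F type were searched on both strands (TTTCCCGC, TTTCGCGC, TTTGCCGC and TTTGGCGC). A word was present in 2.79% of all windows and in 11 of 42 windows of genes on a list of S phase and E2F targets (26.19%). Among the 10 genes, the first UHRF1 window held GCGGGAAA, the reverse complement of the first word, and the second held TTTCGCGC. The windows of DPPA3, DNMT1 and the other 7 genes held none of these words. A match describes the letters only, and the promoter that drove the induced DPPA3 was not analysed here.

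DPPA3 transcripts were higher in the DPPA3-OE line than in the control-OE line in both culture forms, while the shRNA and knockout arrays overlapped their controls. In 3D, the DPPA3-OE arrays read 3.77, 4.54 and 4.74 (log2 signal) and the control-OE arrays 2.99, 2.59 and 2.97. In 2D, the DPPA3-OE arrays read 4.73, 4.18 and 6.16 and the control-OE arrays 2.83, 3.27 and 3.47. The groups did not overlap in either culture form, and the spread was widest among induced 2D arrays (SD 1.02, n = 3), through 1 array at 6.16. DPPA3 rose by 1.50 in 3D (log2 fold change, SE 0.31, limma, adjusted p = 0.00251 over all genes), which is 2.83-fold, and by 1.84 in 2D (SE 0.31, adjusted p = 0.000475), which is 3.58-fold. The effects in 3D and 2D differed by -0.34 (95% interval -1.23 to 0.55, adjusted p = 0.902).

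The DPPA3 probe set read 3.77 to 6.16 on the 6 DPPA3-OE arrays and 2.55 to 3.47 on the 18 arrays without DPPA3-OE. The shRNA arrays read 2.71, 3.13 and 2.77 and the control shRNA arrays 2.80, 2.78 and 3.15, a difference of -0.04 (95% interval -0.67 to 0.59). Clone 66 read 2.55 and 2.82 and clone 75 read 3.19 and 2.89, against 2.68 and 3.03 with the scrambled guide. These arrays interleave, with differences of -0.16 for clone 66 (95% interval -0.94 to 0.61) and 0.19 for clone 75 (-0.58 to 0.96). A knockout by guide RNA may leave transcript behind, and the sources used here do not place the probe set relative to the edit, so the signal does not check these labels. Processed copies of DPPA3 exist in the human genome, and their part in this signal was not tested. In order of group means, the 2 DPPA3-OE groups came first, at 5.03 ± 1.02 in 2D and 4.35 ± 0.51 in 3D (SD, n = 3), and the other 7 groups lay between 2.69 and 3.19. Of the 8 neighbouring pairs of groups in that order, 1 did not overlap, the step between DPPA3-OE 3D and control-OE 2D.

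**Figure D1:**
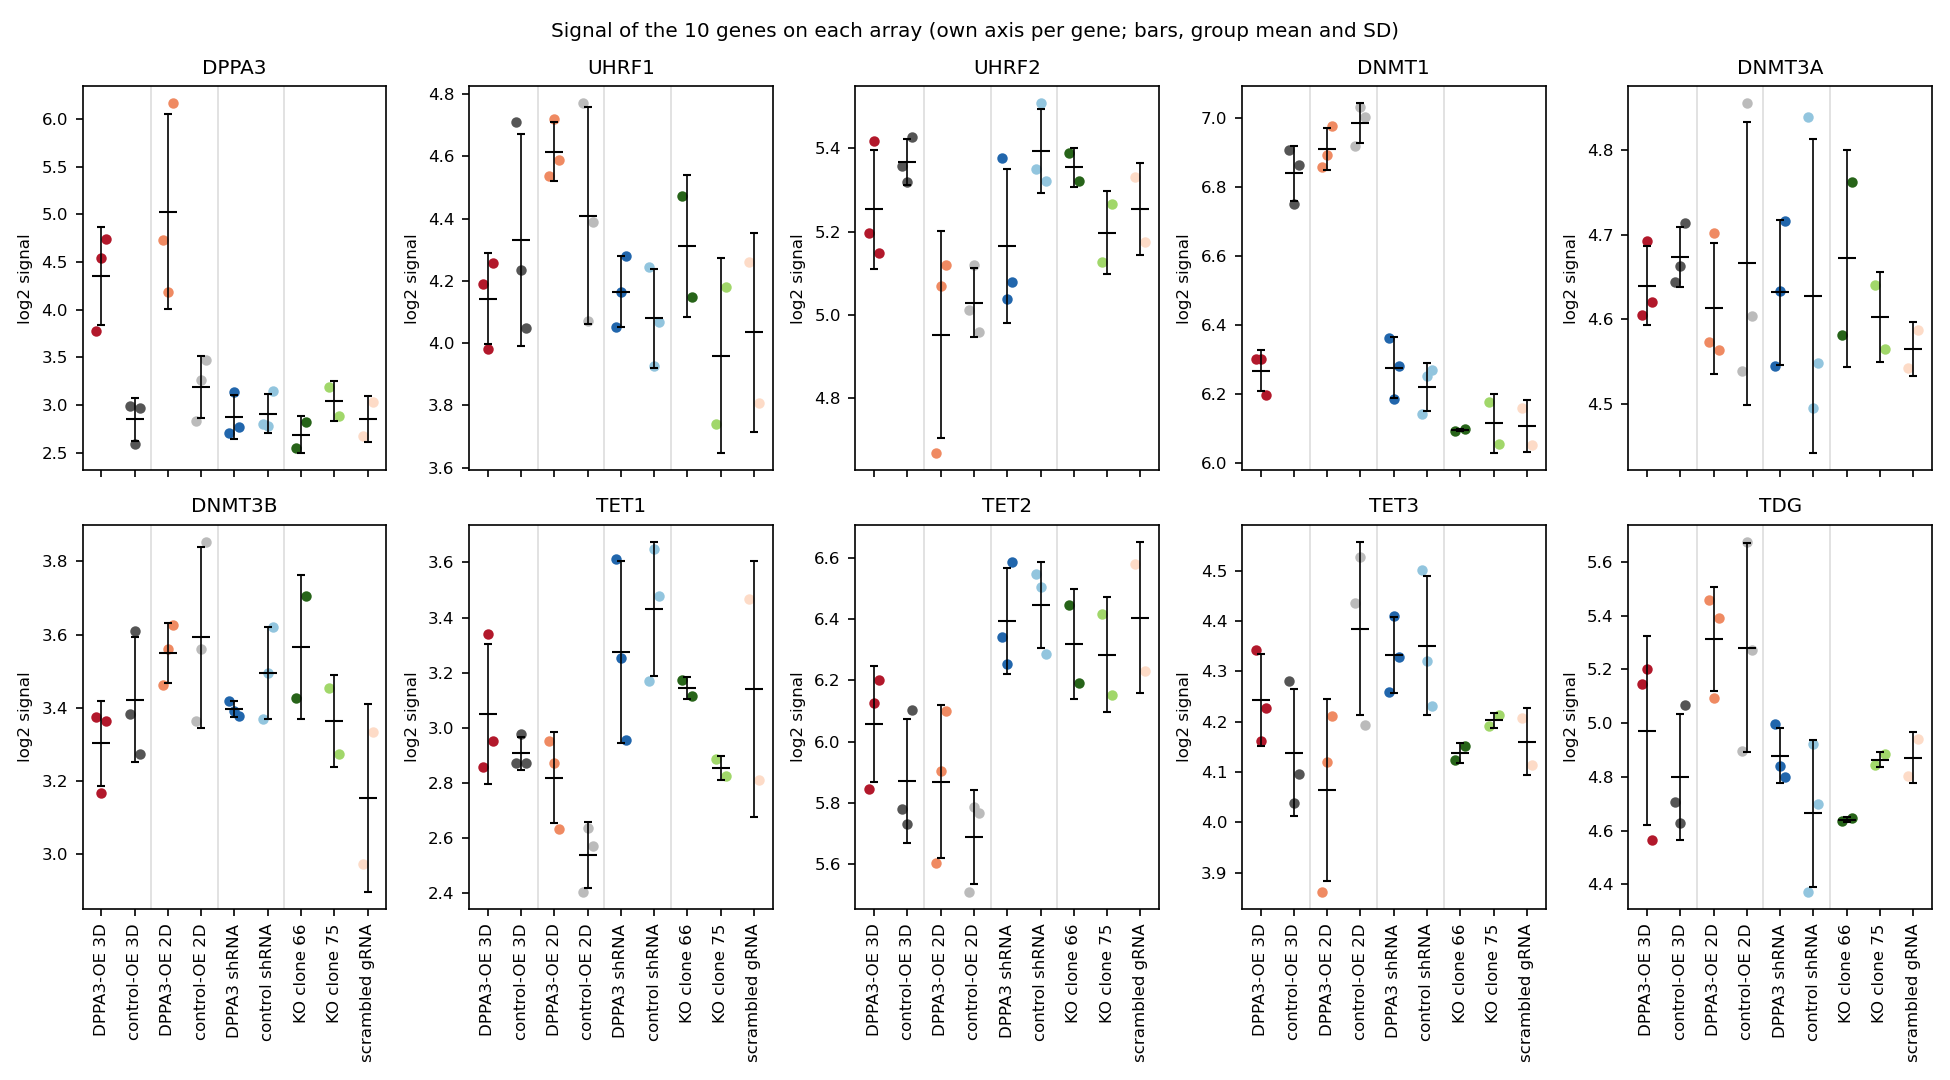
Log2 signal of the 10 genes on each of the 24 arrays, 1 panel per gene with its own vertical range, with points for arrays and bars for the group mean ± SD (n = 3, or n = 2 in the knockout groups). DPPA3 is high on the 6 DPPA3-OE arrays, and DNMT1 is lower on the 3 DPPA3-OE 3D arrays (6.20 to 6.30) than on the 3 control-OE 3D arrays (6.75 to 6.91).

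Against this background, 2 of the 10 genes passed the test in induced 3D megacolonies, DPPA3 itself and DNMT1, while 5.7% of all 17448 genes did so. DPPA3 is the gene that the line was built to express, so its pass followed from the design, and DNMT1 was the only other. Both also had arrays that did not overlap, as did 18.3% of all genes. In 2D, 1 of 10 passed, again DPPA3 (3.13% of all genes), and no other gene of the 10 did. These counts are therefore not read as more calls than among all genes. With the shRNA 0 of 10 passed at the adjusted p and 0 at an unadjusted p under 0.05 (0.086% and 5.26% of all genes). In clone 66, 0 of 10 passed and 1 had an unadjusted p under 0.05 (1.43% and 9.55% of all genes). In clone 75, 0 of 10 passed and 0 had an unadjusted p under 0.05 (0.619% and 8.12% of all genes). Clone 66 set against clone 75 gave 0 of 10 as well, with 0 at an unadjusted p under 0.05 (2.9% and 10.1% of all genes). DNMT1 was thus the one endogenous gene of the 10 to pass in any comparison of a DPPA3-modified group with its control. In none of the alternative analyses of these 5 comparisons did UHRF1, UHRF2, DNMT3A, DNMT3B, TET1, TET2, TET3 or TDG pass.

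**Figure D2:**
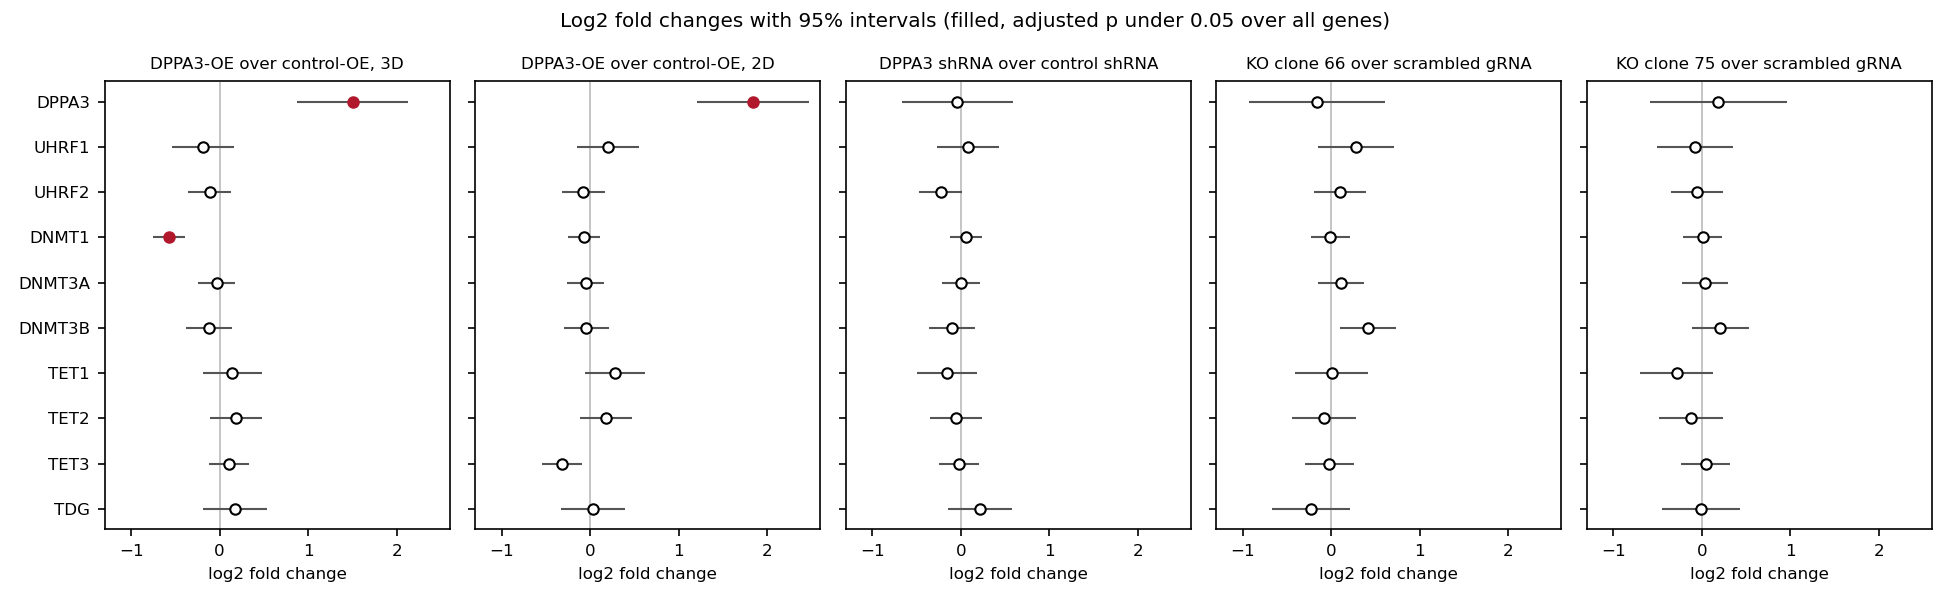
Log2 fold changes of the 10 genes with 95% intervals in the 5 comparisons of a DPPA3-modified group over its control, with filled symbols for genes that passed the adjusted p of limma. The filled symbols are DPPA3 in both induction comparisons (1.50 and 1.84) and DNMT1 in 3D induction (-0.57).

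DNMT1 RNA was lower in induced megacolonies and close to its control in the other modified groups. The DPPA3-OE 3D arrays read 6.30, 6.30 and 6.20 and the control-OE 3D arrays 6.91, 6.75 and 6.86. Every induced array lay below every control array, and DNMT1 fell by 0.57 on the log2 scale (SE 0.09, adjusted p = 1.13e-04), to 0.673 of the control signal. By its p it was the 131st of all genes in that comparison. It kept its call in 14 of 14 alternative analyses, with log2 fold changes of -0.62 to -0.54 and adjusted p up to 0.0147.

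The same fall was not measured with the shorter induction in 2D. There the DPPA3-OE arrays read 6.86, 6.89 and 6.98 and the control-OE arrays 6.92, 7.03 and 7.0. These arrays overlapped, and the difference was -0.08 (95% interval -0.26 to 0.11, adjusted p = 0.801). Set against the 2D effect, the effect in 3D was lower by a log2 difference of -0.50 (95% interval -0.75 to -0.24), with an unadjusted p of 0.000506 and an adjusted p of 0.109, so the difference between the effects did not pass over all genes, of which 0.241% did. The alternative analyses gave -0.54 to -0.46 for this difference and adjusted p between 0.0762 and 0.35.

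In the knockdown and knockout lines, DNMT1 lay near its controls. The shRNA arrays read 6.36, 6.19 and 6.28 and the control shRNA arrays 6.14, 6.25 and 6.27, which gave a difference of 0.06 (95% interval -0.13 to 0.24). Clone 66 read 6.09 and 6.10 and clone 75 read 6.18 and 6.05, against 6.16 and 6.05 with the scrambled guide. The differences were -0.01 for clone 66 (95% interval -0.23 to 0.21) and 0.01 for clone 75 (-0.21 to 0.23). These 3 intervals do not reach the 0.57 measured with induction in 3D, in either direction. They rest on the spread between arrays and do not cover the spread between clones.

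DNMT1 had the tightest replicates of the 10 genes, with a pooled within-group SD of 0.07 against 0.10 to 0.43 for the others. Its group means ran from 6.98 in control-OE 2D, through 6.91 in DPPA3-OE 2D and 6.84 in control-OE 3D, to 6.28 with the DPPA3 shRNA, 6.27 in DPPA3-OE 3D, 6.22 with the control shRNA, and 6.10 to 6.12 in the knockout experiment. Of the 8 neighbouring pairs in that order, the step between control-OE 3D and DPPA3 shRNA was the one without overlap. The induced megacolonies (6.20 to 6.30) lay within the range of the shRNA and knockout experiments (6.05 to 6.36), and the control-OE 3D arrays (6.75 to 6.91) lay below or among the 2D cultures (6.86 to 7.03). Levels across experiments were not tested, since experiment and any batch cannot be told apart.

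Some genes of DNA replication fell on the same arrays. Of 35 measured genes on the list of S phase and E2F targets, 14 fell and 0 rose in DPPA3-OE 3D megacolonies (5.7% of all genes passed). The list had a median log2 fold change of -0.37 against -0.01 over all genes. When only the arrays of that experiment entered the fit, 9 fell. MCM7, a subunit of the replicative helicase, changed by -0.71 (adjusted p = 6.00e-05). EZH2, a histone methyltransferase, changed by -0.77 (adjusted p = 1.17e-04), and NASP, a histone chaperone, by -0.69 (adjusted p = 1.47e-04). The mean signal of the list was 5.78 to 5.97 on DPPA3-OE 3D arrays and 6.17 to 6.28 on control-OE 3D arrays. It was 6.46 to 6.58 on DPPA3-OE 2D arrays and 6.48 to 6.57 on control-OE 2D arrays. The arrays of the other experiments lay between 5.44 and 5.78. With induction in 2D, 0 of the 35 fell and 2 rose (3.13% of all genes passed). These were E2F8, by 0.79 (adjusted p = 9.93e-05), and TYMS, the thymidylate synthase gene, by 0.60 (adjusted p = 8.55e-04). With the shRNA 0 of the 35 passed, 3 had an unadjusted p under 0.05, and 26 had log2 fold changes above 0 (median 0.11). In clone 66, 0 passed, 8 had an unadjusted p under 0.05, and 32 lay below 0 (median -0.12), with list means of 5.44 to 5.48 against 5.58 to 5.65 with the scrambled guide, while DNMT1 differed by -0.01. In clone 75, 0 passed, 4 had an unadjusted p under 0.05, and 17 lay below 0 (median 0.02). The shares of all genes at that unadjusted p were 5.26% with the shRNA, 9.55% in clone 66 and 8.12% in clone 75. DNMT1 is itself known as a gene with higher RNA in cycling cells, and in bulk RNA fewer cells in a phase and less RNA per cell cannot be told apart. The part of cell cycling in the fall of DNMT1 was not tested.

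Markers of proliferation were read on the same arrays. Of 10 such genes, 5 fell in DPPA3-OE 3D (5.7% of all genes passed) and 10 had log2 fold changes below 0, with a median of -0.35. MKI67, the gene of the Ki-67 antigen, read 7.30, 7.76 and 7.28 on DPPA3-OE 3D arrays and 7.97, 8.0 and 8.06 on control-OE 3D arrays. It changed by -0.56 (adjusted p = 9.95e-04), and by -0.56 with an adjusted p of 0.0585 in a fit of that experiment alone. The mitotic kinase gene AURKA changed by -0.58 (adjusted p = 0.00744), and its adjusted p was 0.0681 without the third DPPA3-OE 3D array. CDK1 changed by -0.50 (adjusted p = 0.0425) and did not pass in 8 of 13 alternatives. The count of 5 dropped to 1 in a fit of that experiment alone and to 1 without the third DPPA3-OE 3D array. It was 2 without the first DPPA3-OE 3D array, 3 without the first or the third control-OE 3D array, 3 with arrays centred on their medians and 2 with a replicate block. With induction in 2D, 0 of the 10 passed and 3 had an unadjusted p under 0.05 (13.6% of all genes). There 8 had log2 fold changes above 0, with a median of 0.09. With the shRNA and in clones 66 and 75, 0 of the 10 passed, and 0, 1 and 1 had an unadjusted p under 0.05 (5.26%, 9.55% and 8.12% of all genes). Of these 10, 9 lay above 0 with the shRNA, 5 in clone 66 and 7 in clone 75.

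**Figure D3:**
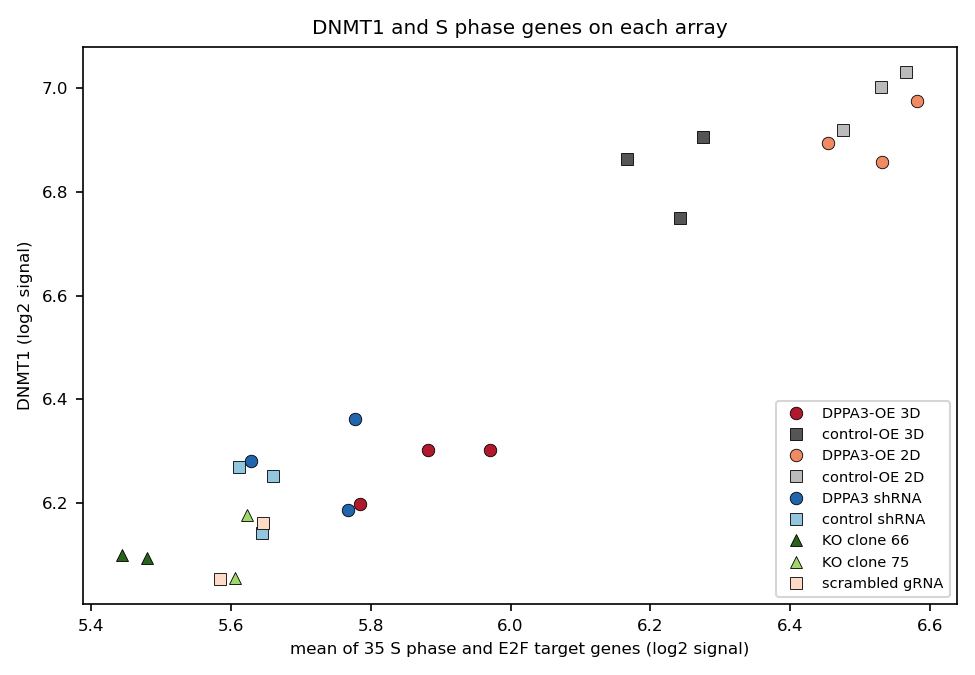
DNMT1 signal (vertical axis, log2) against the mean log2 signal of 35 S phase and E2F target genes (horizontal axis), 1 point per array for the 24 arrays of the 9 groups. The 3 DPPA3-OE 3D arrays lie at 5.78 to 5.97 on the horizontal axis, to the left of and below the 3 control-OE 3D arrays at 6.17 to 6.28.

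Over all arrays DNMT1 followed NASP most closely. With each array set relative to the mean of its experiment, the 3 genes most like DNMT1 over the 24 arrays were NASP (r = 0.909), MELK, a mitotic kinase gene (r = 0.869), and HNRNPM, an RNA-binding splicing factor gene (r = 0.860), among 8723 genes of above-median signal. Arrays of 1 group share their treatment, so these values describe the arrays and carry no p. For UHRF1 the highest were VMA12 (0.781), TAGLN2 (0.667) and TCEANC2 (0.666), none of them on the S phase list. For DPPA3 they were CD46 (0.888), EIF4G2 (0.880) and TNKS (0.867). Among pairs of the 10 genes, the lowest correlations were UHRF1 with TDG at -0.64 and DPPA3 with DNMT1 at -0.53, and the highest was DPPA3 with TET2 at 0.50. UHRF1 and DNMT1 correlated at 0.10. DNMT1's neighbours on chromosome 19 stayed near 0: the 10 tested genes on each side had a median log2 fold change of -0.00 in DPPA3-OE 3D, a range of -0.26 to 0.27, and 0 of 20 passed.

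UHRF1, the reader that DPPA3 binds, did not differ beyond its spread in any modified group. The DPPA3-OE 3D arrays read 4.19, 3.98 and 4.26 and the control-OE 3D arrays 4.71, 4.23 and 4.05. The groups overlapped, with a difference of -0.19 (95% interval -0.54 to 0.16, adjusted p = 0.704). In 2D, the DPPA3-OE arrays read 4.54, 4.72 and 4.59 and the control-OE arrays 4.77, 4.07 and 4.39, a difference of 0.21 (95% interval -0.15 to 0.56, adjusted p = 0.685). The values were 0.09 with the shRNA (95% interval -0.26 to 0.44), 0.28 in clone 66 (-0.15 to 0.71) and -0.07 in clone 75 (-0.50 to 0.36). These intervals are wider than those of DNMT1, since replicate arrays of UHRF1 varied with a pooled SD of 0.25. Its group means ran from 3.96 in clone 75 to 4.61 in DPPA3-OE 2D, and 0 of the 8 neighbouring pairs in that order were without overlap.

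UHRF2, a paralog that also binds modified cytosine, had group means of 4.95 in DPPA3-OE 2D to 5.39 with the control shRNA. Its log2 fold changes were -0.11 with induction in 3D (95% interval -0.36 to 0.13) and -0.08 in 2D (-0.32 to 0.17). With the shRNA its arrays read 5.38, 5.04 and 5.08, against 5.35, 5.51 and 5.32 with the control shRNA. The difference was -0.23 (95% interval -0.47 to 0.01, adjusted p = 0.961), and 1 shRNA array lay within the control range.

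DNMT3A, a de novo methyltransferase, had the smallest range of the 10 genes. Its range over all 24 arrays was 0.36 on the log2 scale, at the 1.74th percentile of the ranges of all genes, and its differences in the 5 modified groups lay between -0.05 and 0.11. DNMT3B, the other de novo enzyme, had a mean of 3.44. It was highest against its control in clone 66, at 3.43 and 3.71, with 3.45 and 3.28 in clone 75 and 2.97 and 3.33 with the scrambled guide. Clone 66 did not overlap its control, as was true of 42.9% of all genes with 2 arrays against 2. The difference of 0.41 (95% interval 0.10 to 0.73) had an adjusted p of 0.286. In clone 75 it was 0.21 (95% interval -0.11 to 0.53, adjusted p = 0.850).

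The TET genes gave no call on the probe sets tested. TET1 had a mean of 3.01, and its differences were 0.14 with induction in 3D (95% interval -0.19 to 0.48) and 0.28 in 2D (-0.06 to 0.62). TET3 read 3.86, 4.12 and 4.21 on DPPA3-OE 2D arrays and 4.43, 4.53 and 4.19 on control-OE 2D arrays. The groups overlapped narrowly, and the difference was -0.32 (95% interval -0.55 to -0.10, unadjusted p = 0.00708, adjusted p = 0.132). In 3D the value for TET3 was 0.11, and the effects in 3D and 2D differed by 0.43 (95% interval 0.11 to 0.74, adjusted p = 0.356). TDG differed by 0.17 with induction in 3D (95% interval -0.19 to 0.53), 0.03 in 2D (-0.33 to 0.39), 0.22 with the shRNA (-0.14 to 0.58), -0.23 in clone 66 (-0.67 to 0.21) and -0.01 in clone 75 (-0.45 to 0.43).

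TET2 was read by 2 probe sets that did not move together. The annotation lists one of them against the long TET2 transcript only and the other against a short transcript as well as the long one. With each array set relative to its experiment's mean, they correlated at r = -0.06 over 24 arrays. In DPPA3-OE 3D the probe set tested read 5.84, 6.13 and 6.20, and control-OE 3D read 5.78, 5.73 and 6.10, a difference of 0.19 (adjusted p = 0.631 over all probe sets with 1 symbol). The other probe set read 5.86, 6.11 and 5.83 in DPPA3-OE 3D and 6.07, 6.03 and 5.77 in control-OE 3D, a difference of -0.02 (adjusted p = 0.973). With the shRNA the values were -0.05 on the probe set tested and 0.17 on the other, neither of which passed. Both probe sets had their highest group means in the shRNA and knockout experiments.

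**Figure D4:**
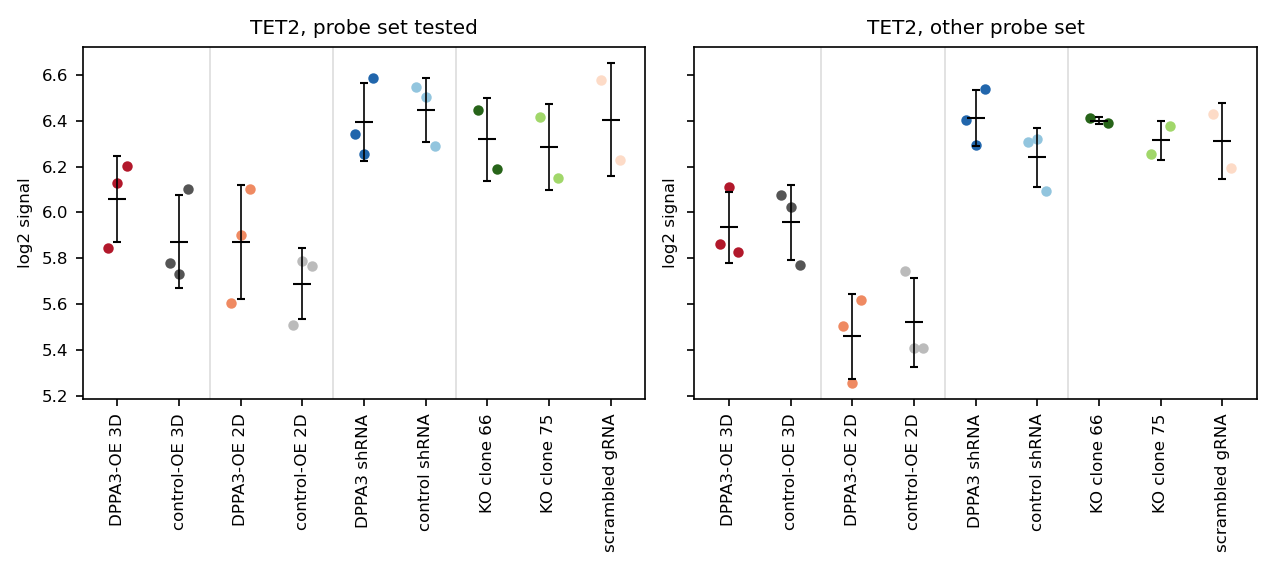
Log2 signal of the TET2 probe set tested (left panel) and of the other TET2 probe set (right panel) on each array, with group mean ± SD (n = 3, or n = 2 in the knockout groups). On the other probe set the 6 arrays of 3D cultures in the induction experiment (5.77 to 6.11) lie above the 6 arrays of 2D cultures (5.26 to 5.75), and on the probe set tested these groups overlap.

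Both TET2 probe sets read higher on average in 3D than in 2D, but only 1 of the 2 passed. The difference between the probe sets was not tested. On the other TET2 probe set, control-OE 3D arrays read 6.07, 6.03 and 5.77 and control-OE 2D arrays 5.75, 5.41 and 5.41, and the signal was higher in 3D by 0.44 (SE 0.12, adjusted p = 0.0285). DPPA3-OE 3D arrays read 5.86, 6.11 and 5.83 and DPPA3-OE 2D arrays 5.51, 5.26 and 5.62, a rise of 0.47 (adjusted p = 0.00868). The probe set tested gave 0.18 (adjusted p = 0.50) and 0.19 (adjusted p = 0.459). Which transcript each probe set reports in these cells was not tested.

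Between culture forms, DNMT1 in the DPPA3-OE line was the 1 gene of 10 to pass on the probe sets tested. It was lower in 3D by 0.64 (log2 fold change -0.64, SE 0.09, adjusted p = 1.35e-05), and 14.9% of all genes passed. The other TET2 probe set, which was not the one tested, passed in both lines (adjusted p = 0.0285 in control-OE and 0.00868 in DPPA3-OE). In the control-OE line the 3 DNMT1 arrays in 3D also lay below the 3 in 2D, with a difference of -0.14 that did not pass (95% interval -0.33 to 0.04, adjusted p = 0.357). There 0 of the 10 genes passed on the probe sets tested and 4 had an unadjusted p under 0.05 (7.8% and 22.1% of all genes). These comparisons share their arrays with the induction comparisons, and each also sets 5 days against 4 hours of doxycycline.

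Other members leaned with culture form without passing. UHRF2 was 5.37 ± 0.06 in control-OE 3D and 5.03 ± 0.08 in control-OE 2D (SD, n = 3 each), a difference of 0.34 without overlap (adjusted p = 0.0771). TET1 differed by 0.37 between the same groups (adjusted p = 0.177), also without overlap, as did 23.2% of all genes. TDG differed by -0.48 (adjusted p = 0.0931), and by -0.67 with an adjusted p of 0.0268 without the first control-OE 2D array. UHRF1 differed by -0.47 in the DPPA3-OE line (adjusted p = 0.0636) and by -0.08 in the control-OE line. Its adjusted p in the DPPA3-OE line was 0.0412 with arrays centred on their medians, 0.0486 after repeated quantile normalization and 0.0415 among genes above the median level.

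Genes of the S phase list fell in 3D in both lines. In the DPPA3-OE line 29 of its 35 genes fell and 0 rose (14.9% of all genes passed), with a median log2 fold change of -0.66 against -0.03 over all genes. In the control-OE line 13 fell and 0 rose (7.8% of all genes passed), with a median of -0.25 against -0.02. The part of cell cycling in the DNMT1 difference between culture forms was not tested either.

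A few partners of DNMT1 and UHRF1 in maintenance methylation fell in induced megacolonies. Of 18 measured genes, 4 fell and 0 rose in DPPA3-OE 3D (5.7% of all genes passed), 16 had log2 fold changes below 0, and the median was -0.26. SUV39H2, a histone H3 lysine methyltransferase, changed by -0.38 (adjusted p = 0.0132). HELLS, a chromatin remodeller needed for methylation in mouse, changed by -0.43 (adjusted p = 0.0137), and LIG1, the replicative DNA ligase whose methylated form UHRF1 recognises, by -0.43 (adjusted p = 0.0183). The fourth was SUV39H1, named after its value was seen, at -0.51 (adjusted p = 0.0219). PCNA, the sliding clamp that binds DNMT1, differed by -0.34 (adjusted p = 0.168). The count of 4 rested on single arrays: it was 0 without the second control-OE 3D array, 1 without the first DPPA3-OE 3D array, 2 without the first control-OE 3D array and 0 in a fit of that experiment alone. HELLS, LIG1 and PCNA are themselves known as replication-linked genes, and the S phase list moved on the same arrays. The part of cell cycling in the fall of these partners was not tested.

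In 2D induction, 1 of the 18 partners fell, SUV39H2, by 0.56 (adjusted p = 5.08e-04), and 0 rose (3.13% of all genes passed). With the shRNA and in clones 66 and 75, 0 of the 18 passed, with 0, 6 and 3 at an unadjusted p under 0.05 (5.26%, 9.55% and 8.12% of all genes). Clone 66 and clone 75 share their control arrays, and their list medians were 0.00 and 0.09.

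Readers and erasers of methylation gave few calls with induction. Among 9 measured methyl-CpG binding genes, 0 passed in induced 3D, 1 with an unadjusted p under 0.05, and 1 rose in 2D, MBD6, by 0.65 (adjusted p = 0.00267), where 3 of the 9 had an unadjusted p under 0.05. Among 17 genes of base excision repair and demethylation, 0 passed in 3D, 7 with an unadjusted p under 0.05, and 1 fell in 2D, APOBEC1, a cytidine deaminase of intestine, by 0.50 (adjusted p = 0.0194), where 3 had an unadjusted p under 0.05. Over all genes, 5.7% passed in 3D and 3.13% in 2D, and an unadjusted p under 0.05 was reached by 16% in 3D and 13.6% in 2D. Without the first DPPA3-OE 2D array, or without the first or the second control-OE 2D array, APOBEC1 did not pass, with adjusted p up to 0.13 over the alternatives. In both lists 0 genes passed with the shRNA or in clones 66 and 75, where 0.086%, 1.43% and 0.619% of all genes did.

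Genes in the metabolism of the methyl donor and of 2-oxoglutarate, which TET enzymes consume, gave 3 calls among 19 with induction in each culture form. The list holds genes that make and genes that use these compounds. Of all genes, 5.7% passed in 3D and 3.13% in 2D. SDHA, a subunit of succinate dehydrogenase, fell by 0.97 in 3D (adjusted p = 2.14e-05) and by 0.63 in 2D. MTRR, a reductase of the methionine cycle, rose by 0.39 in 3D and by 0.56 in 2D, though the 3D value passed in 6 of 14 alternatives and was lost without any 1 of the 3 DPPA3-OE 3D arrays and without the second or the third control-OE 3D array. SHMT2, which feeds 1-carbon units in mitochondria, rose by 0.53 in 3D, and IDH1, which makes 2-oxoglutarate, rose by 0.35 in 2D. SHMT2 did not pass without the first or the third DPPA3-OE 3D array or the third control-OE 3D array, and IDH1 did not pass in 8 of 14 alternatives, among them those without any 1 of the 3 DPPA3-OE 2D arrays or without the first or the second control-OE 2D array. In clone 66, IDH3A, a subunit of the mitochondrial isocitrate dehydrogenase, fell by 0.60 (adjusted p = 0.0251), and it did not pass without any 1 of the 4 arrays compared. In clone 75 and with the shRNA, 0 of the 19 passed, with 9 and 1 at an unadjusted p under 0.05 (8.12% and 5.26% of all genes).

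Genes that DNA methylation is known to keep silent, mainly of the germ line, gave no call in any comparison of a modified group with its control. Of 19 measured, 0 passed in induced 3D and 0 in induced 2D, and in both comparisons 0 had an unadjusted p under 0.05. Of all genes, 5.7% passed in 3D and 3.13% in 2D, and 16% and 13.6% had an unadjusted p under 0.05. Their medians were 0.02 in 3D and -0.07 in 2D, against -0.01 and 0.00 over all genes. With the shRNA and in clones 66 and 75, 0 passed, and 0, 1 and 0 had an unadjusted p under 0.05. Of all genes, 0.086%, 1.43% and 0.619% passed there, and 5.26%, 9.55% and 8.12% had an unadjusted p under 0.05. In the DPPA3-OE line, 1 of the 19 rose and 1 fell in 3D over 2D, where 14.9% of all genes passed. The median gene of this list had a mean signal of 2.42, and whether such signals exceed background was not tested. Among 15 relatives of DPPA3 and early germ cell factors, 0 passed in either induction comparison. In each, 1 had an unadjusted p under 0.05 (16% of all genes in 3D and 13.6% in 2D). In clone 66, PRDM1, a repressor needed for germ cell fate in mouse, rose by 0.65 (adjusted p = 0.0353), and it did not pass without any 1 of the 4 arrays compared.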

How the data were processed

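RNA of SW1222 cells was measured on 24 single-channel expression arrays in 9 groups taken from the labels. The deposited values are log2 signals, made by the authors with RMA in Partek 6.6 as the submitters' processing notes record. For the probe annotation, no genome build is given in the sources used here. RMA equalises the arrays by quantiles, so a shift shared by all genes cannot be seen. Medians over the genes tested ran from 4.03 to 4.13.

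Of 20276 probe sets, 18062 carried 1 gene symbol, 1288 several and 926 were unnamed here. Each of 17448 genes was represented by its brightest probe set on average (468 had a choice). The group means of all 24 arrays were fitted in a single model with limma 3.58.1 in R 4.3.3, with 15 residual and 9.81 prior degrees of freedom. Tests were 2-sided, and p-values were adjusted by Benjamini and Hochberg's method over the 17448 genes, with 0.05 as the threshold. The number of arrays limits the precision, and the computation was tested on simulated data.

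The 10 genes and all lists were chosen with earlier results of these data known. All 10 were named whatever their values, as were MKI67, PCNA and HELLS. From each list, up to 3 genes of smallest p among those that passed were named in each comparison reported. The lists of cell type markers and the comparisons between culture forms were left out of this naming. Alternatives changed the probe set rule, a filter on dim genes, centring, quantile normalization, the arrays in the fit, the variance prior, array weights, a replicate block and the replicates kept. Promoter windows and chromosome order were taken from RefSeq tables, which matched 10 of 10 genes.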

Additional observations from a re-analysis of the deposited data

Results flagged for a closer look

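For 4 genes of the lists other than those of cell type markers, the induction effect in 3D differed from that in 2D. The test was that of the difference itself, which 0.241% of all genes passed. Of 12 markers of colorectal epithelium, 2 also passed, each with a positive difference. APOBEC1 had a difference of 0.81 (adjusted p = 0.0359), E2F8 of -0.91 (adjusted p = 0.0154), GINS1 of -0.82 (adjusted p = 0.0320) and AURKA of -0.89 (adjusted p = 0.0359). E2F8, a transcription factor of S phase, rose by 0.79 with induction in 2D (adjusted p = 9.93e-05). These differences failed in some of 20 alternatives: 12 for APOBEC1, 2 for E2F8, 10 for GINS1 and 15 for AURKA. E2F8 failed without the second control-OE 3D array and in a fit of that experiment alone. AURKA failed without any 1 of the 6 DPPA3-OE 2D and control-OE 2D arrays and without any 1 control-OE 3D array. It also failed without the first or the third DPPA3-OE 3D array. Between the clones, 2.9% of all genes passed. For 3 genes of the same lists, clone 66 differed from clone 75: TRIM28 by -0.58 (adjusted p = 0.00870), IDH3A by -0.94 (adjusted p = 1.09e-04) and PRDM1 by 0.74 (adjusted p = 0.00712). Of the cell type markers, 2 of 12 epithelial and 1 of 8 leukocyte and endothelial genes also passed, all higher in clone 66. IDH3A passed in 12 of 12 alternatives. TRIM28 and PRDM1 did not pass without either clone 66 array or without the second clone 75 array. Of the 10 genes themselves, 0 differed by either test, and 2 and 0 had an unadjusted p under 0.05 (8.98% and 10.1% of all genes). The clones were single clones with 2 arrays each.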

How the results depend on the processing

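DPPA3 in both induction comparisons and DNMT1 in 3D induction and between the culture forms of the DPPA3-OE line kept their direction and their call in every alternative in which they were measured. DPPA3 ranged from 1.31 to 1.79 in 3D and from 1.27 to 2.26 in 2D, with adjusted p up to 0.0261 and 0.0291. No value changed sign where it passed. Among 1233 alternative values of the 10 genes, 79 changed sign with neither value passing. With genes above the median level only, the count of the 10 genes that passed was 1 in 3D induction (2 with all genes) and 0 in 2D induction (1 with all genes), because DPPA3 fell below that level. Between the culture forms of the DPPA3-OE line, 2 passed in place of 1 with the mean of all probe sets (TET2), with genes above the median level, with centred arrays and with repeated quantile normalization (UHRF1 in each). Between those of the control-OE line, 1 passed in place of 0 with array weights (TDG, adjusted p = 0.0429). The cause of these shifts in UHRF1, TET2 and TDG was not tested. Over all genes, fits of 1 experiment alone gave 468 calls in place of 995 in 3D induction, 314 in place of 546 in 2D induction, 164 in place of 108 in clone 75, 7 in place of 42 for the difference of induction effects and 824 in place of 1361 between control-OE culture forms. Array weights gave 26 in place of 15 with the shRNA, 546 in place of 250 in clone 66 and 256 in place of 108 in clone 75. Without 1 replicate at a time, calls over all genes ranged from 663 to 989 in 3D induction, 391 to 489 in 2D induction, 8 to 12 with the shRNA, 89 to 120 in clone 66, 38 to 67 in clone 75, 11 to 70 for the difference of effects, 259 to 270 between clones, 875 to 1221 between control-OE culture forms and 1964 to 2362 between DPPA3-OE culture forms. Of the 10 genes, 0 to 1 then passed between control-OE culture forms and 1 to 2 between DPPA3-OE culture forms, where the second was DPPA3 without the second DPPA3-OE 2D array (-1.10, adjusted p = 0.0131). In the knockout groups a lone array was assumed to vary like the other groups. Deviations of same-numbered arrays correlated at -0.21 to 0.15 in 3D induction, -0.11 to 0.05 in 2D induction, -0.04 to 0.17 with the shRNA, 0.09 for clone 66 and 0.01 for clone 75 against their control. In no experiment with 3 numbers did every pair correlate above 0.1, so the numbers were not taken as pairs. With a replicate block, 2 of the 10 genes passed in 3D induction (891 genes of all) and 1 in 2D induction (496 of all), and it changed no call of the 10 genes. DNMT1 then had an adjusted p of 0.000849 in 3D. No background signal was analysed here, so how far the probe sets of DPPA3, TET1 and DNMT3B, whose means lay below the median gene mean, exceed it was not tested.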
